A study of Mus musculus with 6 samples.

Results

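The regulators of small GTPases described here are the genes of the RhoGAP family other than CdGAP, with the 3 GDP dissociation inhibitors of the RhoGDI family. The rule that chose them used gene symbols and no measured value, but it was set with earlier results of these data known. It took every Arhgap and Srgap gene, Chn1, Chn2, Dlc1, Stard8 and Stard13 (40 genes), and Arhgdia, Arhgdib and Arhgdig (3 genes). CdGAP, the product of Arhgap31 and the target of the hairpin in the study, was left out. The rule gave 43 of the 41214 genes in the table. The study sequenced total RNA of cultured cells from mouse mammary tumor explants that derive from NMuMG, a mouse mammary epithelial line. All 6 libraries share Neu-NT, the activated ErbB2 oncoprotein, and differ in the hairpin: 3 libraries of CdGAP-depleted cells (shCdGAP) and 3 of control cells, titled shCtl with the genotype shCON. The cell type label names shCTL in all 6 samples, so the groups rest on the titles and the genotype label. The sources used here give no hairpin sequence, no promoter for Neu-NT and no number of clones. Nor is it stated that replicates were cultured apart, so every p-value covers only variation among these 6 libraries, possibly technical.

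Small GTPases of the RhoA, Rac1 and Cdc42 family switch between a GTP-bound active form and a GDP-bound inactive form. RhoGAP proteins speed up GTP hydrolysis and so turn the switch off, each for its own choice of GTPases, and the GDP dissociation inhibitors (RhoGDIs) hold the GTPases in the cytosol. In mammary epithelium these proteins act on actin, cell junctions, migration and cell division, and several RhoGAPs, Dlc1 among them, are known as tumor suppressors.

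The libraries held between 19176540 and 26824249 reads assigned to genes. Arhgap31 (ENSMUSG00000022799, minus strand of mm10 chromosome 16, 38598340 to 38713274) was at 0.149, 0.826 and 0.748 FPKM in shCdGAP (replicates 1, 2 and 3, the order used throughout) and 1.19, 1.30 and 1.35 in shCtl, where FPKM is a level per gene length and sequencing depth. Every shCdGAP library was below every shCtl library, but the log2 fold change of -0.56 (SE 0.19) missed the threshold (limma adjusted p = 0.0836) and passed it without shCdGAP replicate 1 (-0.35, adjusted p = 0.0157). That library stood apart from its group, with a correlation across genes of 0.958 and 0.950 with replicates 2 and 3, against 0.996 between those. The luminal keratin genes Krt8 and Krt18 were at 1491 and 1789 FPKM or more in each library. Of the 10 mammary epithelial markers 7 were tested, and Cdh1 and Krt7 were higher in shCdGAP (168 against 50.7 and 0.792 against 0.264 FPKM). Epcam (0 against 0.632) and Krt5 (0.0131 against 0.607) were lower, and Cldn3 was at 0 in all 6 libraries. Epcam and Krt5 reached 10 reads, the minimum for testing, in shCtl libraries alone, so the filter set their direction. Over all genes tested, 9.92% were higher and 11.1% lower. Of the 12 leukocyte markers, Tyrobp and Adgre1 were at 0 in all 6 libraries, Ptprc was under 0.02 FPKM in each, and the summed list was at 3.59 to 10.3 FPKM in shCdGAP and 13.7 to 18.5 in shCtl, most of it Cd68. Of the 5 tested, Cd68 was lower, Itgam was higher (0.221 against 0.0334 FPKM, limma adjusted p = 0.0160) and Csf1r, Coro1a and Laptm5 did not pass. Itgam reached 10 reads in shCdGAP libraries alone (26, 36 and 36, against 6, 7 and 2 in shCtl), so the filter set its direction too. The 6 endothelial and 8 fibroblast markers summed to at most 0.304 and 1.10 FPKM in any library.

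Of the 43 genes, 34 had enough reads to be tested, and 11 of these changed in shCdGAP. Arhgdib, Arhgap24, Arhgap42 and Arhgap5 were higher, and Srgap3, Arhgap9, Chn2, Arhgap32, Arhgap27, Arhgap10 and Arhgap35 were lower (limma on log2(FPKM + 1), Benjamini-Hochberg adjusted p under 0.05 over all genes). These were 32.4% of the tested family, against 21.0% of all 13483 genes tested. By direction, 4 members were higher, where 9.92% of all genes were, and 7 were lower, where 11.1% were. In such bulk samples fewer cells of a type and less RNA per cell cannot be told apart. The median log2 fold change was -0.03 over its tested members and -0.01 over all tested genes, and the median absolute change was 0.24 and 0.25. The summed FPKM of the 40 RhoGAP genes was 249.6 ± 33.1 in shCdGAP and 271 ± 8.37 in shCtl (SD, n = 3), with 212, 273 and 264 against 262, 277 and 275 in the single libraries. The lowest of these sums came from shCdGAP replicate 1.

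The ranges of both groups were apart for 21 of the 34 tested members, against 44.1% of all tested genes. Of these, 9 were higher, where 21.8% of all genes were, and 12 were lower, where 22.3% were. A fold change on the log2(FPKM + 1) scale understates the change of genes under about 1 FPKM, and 9 tested members have a mean below that level. With limma-voom on the reads recovered from the table, 14 members were called, the same 11 and Dlc1, Stard8 and Arhgap29, against 21.8% of all genes. These 3 were higher, a direction set by the filter, since they reached 10 reads in shCdGAP libraries alone. A pseudocount of 0.1 FPKM gave the same 14 (21.8% of all genes). With the replicate number as a block, 8 members were called, against 18.2% of all genes, and Arhgap10, Arhgap35 and Chn2 were lost (adjusted p = 0.0620, 0.0633 and 0.0524, limma). The authors' deposited table, a DESeq2 comparison, called 17 of the 37 members for which it gives an adjusted p, against 23.8% of its genes. It had 8 members higher, where 11.3% of its genes were, and 9 lower, where 12.5% were. Besides the 11, it called Dlc1, Stard8, Arhgap29 and Arhgap26 higher and Arhgap4 and Arhgdig lower.

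The number of calls moved with single libraries, in the family as over all genes. Without shCdGAP replicate 1, 16 members were called (39.9% of all genes), without both libraries numbered 1, 20 (48.3%), and from reads without shCdGAP replicate 1, a choice made after seeing the data, 20 (41.9%). Without shCdGAP replicate 2 or 3 there were 6 (10.9%) and 11 (15.9%), and without shCtl replicate 1, 2 or 3 there were 8 (12.8%), 5 (9.17%) and 5 (9.88%). Scaling by library totals or a trimmed mean left the same 11 members (20.9% and 21.1% of all genes), quantile scaling gave 15 (21.4%), a fit with no filter 12 of 40 (11.2%, with Arhgap29, Dlc1 and Arhgdig gained and Arhgap10 and Arhgap35 lost at limma adjusted p = 0.0636 and 0.0623), and one limited to genes at 5 CPM or more (reads scaled to library depth) 9 of 26 (19.0%). In each of these fits the share of the tested family called was above that of all genes, a description with no test. Called under each of the 16 alternatives in which they could be tested were Arhgdib, Arhgap24, Arhgap32, Arhgap9 and Srgap3, of which Arhgap24 and Arhgap9 were too low for the strictest filter.

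**Figure D1:**
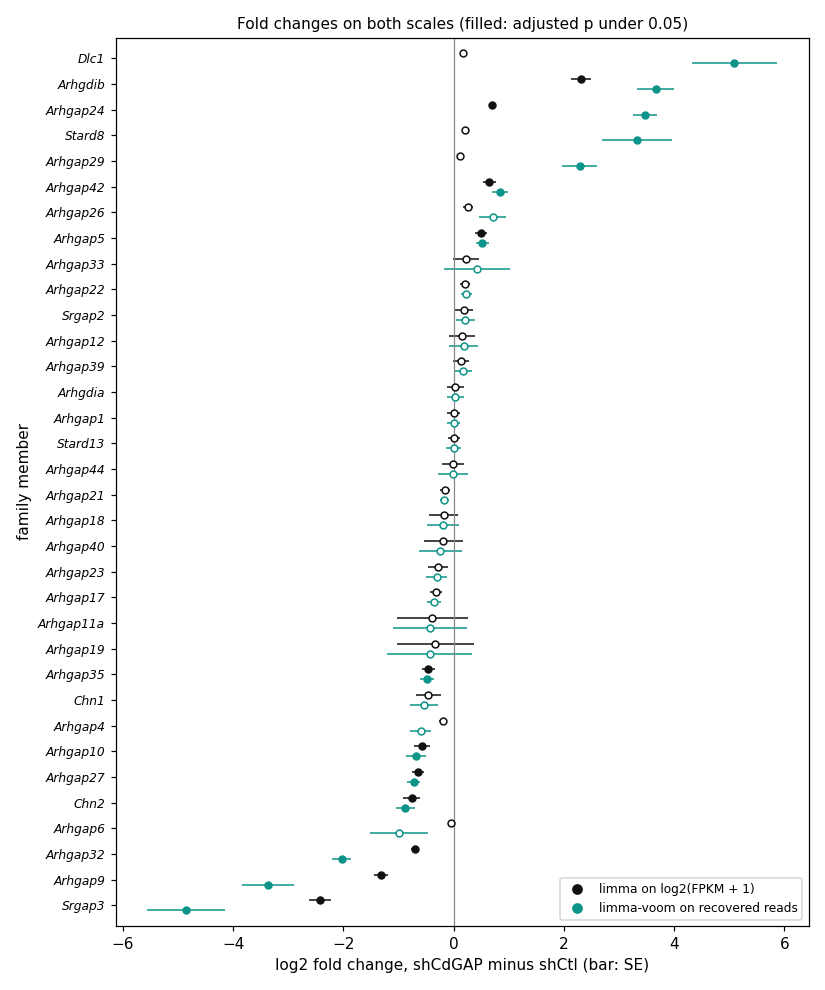
Log2 fold change of each tested member (horizontal axis, shCdGAP minus shCtl, bars are the standard error) on the log2(FPKM + 1) scale by limma and from recovered reads by limma-voom, with filled points for an adjusted p under 0.05. Dlc1, Stard8 and Arhgap29 lie near 0 on the first scale and at 5.09, 3.33 and 2.28 on the second, while both scales place Srgap3 and Arhgap9 lowest.

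Levels spanned 4 orders of magnitude and more. RhoGDI1, the product of Arhgdia, was at 343 FPKM over all libraries, followed by Arhgap11a (33.4), Arhgap1 (27.1), Arhgap5 (25.8), Arhgap35 (23.3) and Arhgap22 (17.6). In all, 10 members had a mean above 10 FPKM and 25 above 1 FPKM. The 9 members that were not tested were Arhgap28, Arhgap30 and Arhgap36 with 0 reads in every library, Arhgap15, Arhgap20 and Arhgap25 with 2 reads each over all 6, Srgap1 with 7, Arhgap8 with 28 and Arhgdig with 31. Arhgap15 and Arhgap25 encode RhoGAPs of blood cells. A count of 0 cannot tell absence from a level below 3 reads per library.

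**Figure D2:**
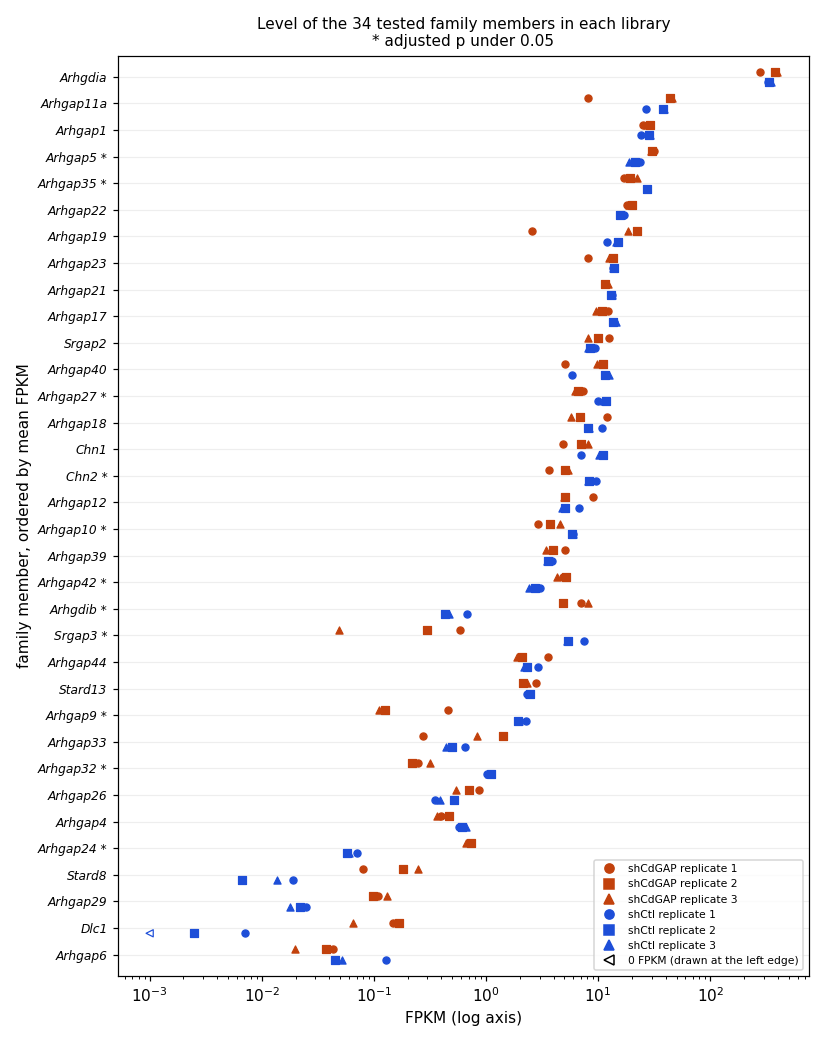
FPKM of the 34 tested members in each library on a log axis, ordered by their mean, with shCdGAP in orange and shCtl in blue and a marker shape for each replicate number. Arhgdia sits at 277 to 395 FPKM, apart from the other members, and in Arhgap11a and Arhgap19 shCdGAP replicate 1 lies below the other 5 libraries.

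The nearest relatives of CdGAP are Arhgap32, Arhgap33 and Arhgap30. Arhgap32 (ENSMUSG00000041444, chromosome 9, 32116136 to 32268446, plus strand) encodes p250GAP, a RhoGAP best known from neurons. Its level was 0.249, 0.220 and 0.314 FPKM in shCdGAP and 1.02, 1.10 and 1.06 in shCtl, from 83 to 134 and 338 to 520 reads. The groups were far apart and each was tight, and Arhgap32 fell from 1.06 ± 0.0410 to 0.261 ± 0.0480 FPKM (SD, n = 3), a ratio of 0.246. Its log2 fold change was -0.71 (SE 0.063, limma adjusted p = 9.99e-04), and -2.03 from reads (limma-voom adjusted p = 6.92e-04). Arhgap33, a sorting nexin with a RhoGAP domain, was at 0.276, 1.42 and 0.828 FPKM in shCdGAP and 0.653, 0.493 and 0.437 in shCtl. Its groups overlapped through shCdGAP replicate 1, the lowest of the 6. It was not called (log2 fold change 0.22, adjusted p = 0.542), but was called higher without that library (limma adjusted p = 0.0337).

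Both p190 RhoGAPs, the main brakes on RhoA at adhesions, changed in opposite directions. Arhgap5 (p190B, ENSMUSG00000035133, chromosome 12, 52503972 to 52571975, plus strand) stood at 31.5, 29.9 and 29.4 FPKM in shCdGAP and 23.6, 21.3 and 18.7 in shCtl. Arhgap35 (p190A, ENSMUSG00000058230, chromosome 7, 16493719 to 16614993, minus strand) was at 17.0, 19.2 and 22.4 FPKM in shCdGAP and 27.1, 27.2 and 27.3 in shCtl. Neither gene's groups overlapped, and in shCtl Arhgap35 was the higher of the pair in each library, in shCdGAP Arhgap5 was. On the log2 scale Arhgap5 rose by 0.50 (SE 0.11, limma adjusted p = 0.0260) and Arhgap35 fell by 0.46 (SE 0.12, limma adjusted p = 0.0396). Their sum was 49.8 ± 1.78 FPKM in shCdGAP and 48.4 ± 2.35 in shCtl (SD, n = 3). The log2 ratio of Arhgap5 to Arhgap35 averaged 0.64 ± 0.25 in shCdGAP and -0.36 ± 0.17 in shCtl, a difference of 1.00. The pair was set side by side after its values were seen, so this ratio is a description with no test. Both calls depended on single libraries: Arhgap5 was not called without shCdGAP replicate 2 or 3 (limma adjusted p = 0.0895 and 0.0580) or shCtl replicate 2 or 3 (0.107 and 0.105), and Arhgap35 not without shCdGAP replicate 2 (0.127) or shCtl replicate 1, 2 or 3 (0.109, 0.144 and 0.141).

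The GRAF proteins, RhoGAPs with a membrane-bending BAR domain, showed a like split. Arhgap42 (GRAF3, ENSMUSG00000050730, chromosome 9, 8994329 to 9239101, minus strand), known for holding RhoA down in smooth muscle, was at 4.91, 5.21 and 4.33 FPKM in shCdGAP and 3.02, 2.71 and 2.40 in shCtl. It rose 1.78-fold, with a log2 fold change of 0.65 (SE 0.12, limma adjusted p = 0.0124). Arhgap10 (GRAF2, ENSMUSG00000037148, chromosome 8, 77250366 to 77517953, minus strand) was at 2.91, 3.70 and 4.55 FPKM in shCdGAP and 5.98, 5.86 and 5.94 in shCtl. All shCdGAP libraries were lower and more spread than the shCtl libraries, and Arhgap10 fell by 0.57 on the log2 scale (SE 0.15, limma adjusted p = 0.0399). Arhgap26 (GRAF1) was the lowest of the 3, at 0.858, 0.707 and 0.534 FPKM in shCdGAP and 0.352, 0.518 and 0.390 in shCtl. Its groups did not overlap, but it was not called (log2 fold change 0.26, adjusted p = 0.108), and was called with quantile scaling (limma adjusted p = 0.0295). The log2 ratio of Arhgap42 to Arhgap10, also paired after the values were seen, was 0.39 ± 0.42 in shCdGAP and -1.13 ± 0.16 in shCtl (no test), and the 3 genes together were at 9.23 ± 0.499 and 9.06 ± 0.311 FPKM. Arhgap42 was not called without shCdGAP replicate 2 (limma adjusted p = 0.0574) or shCtl replicate 2 or 3 (0.0659 and 0.0647), nor Arhgap10 without shCdGAP replicate 2 (0.117) or shCtl replicate 1, 2 or 3 (0.116, 0.137 and 0.136).

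**Figure D3:**
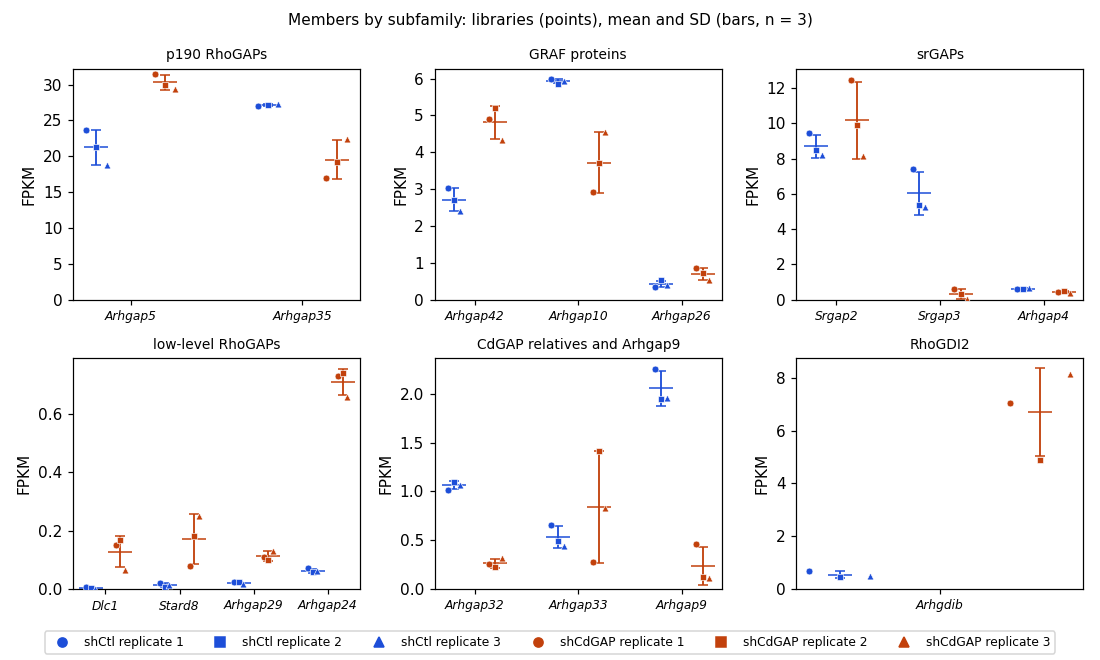
FPKM of selected members by subfamily in panels with their own linear axes from 0, with 1 point for each library, the mean as a long bar and the SD as error bars (n = 3). Arhgap5 and Arhgap35 cross over between the groups in each library, Arhgap42 and Arhgap10 by mean (in shCdGAP replicate 3 Arhgap42 is at 4.33 and Arhgap10 at 4.55), and Srgap3 drops from 6.03 to 0.313 FPKM while Arhgdib climbs from 0.526 to 6.70.

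Srgap3 had the largest fall of the tested members. It encodes WRP, a Rac GAP of the srGAP group, whose members bind Robo receptors and shape membranes through an inverse F-BAR domain. Srgap3 (ENSMUSG00000030257, chromosome 6, 112717971 to 112947266, minus strand) was at 0.590, 0.301 and 0.0490 FPKM in shCdGAP and 7.43, 5.38 and 5.28 in shCtl, from 133, 65 and 12 reads against 1414, 1457 and 1391. The lowest shCtl library was well above the highest shCdGAP library, and within shCdGAP the libraries themselves ranged widely. The means were 0.313 ± 0.271 and 6.03 ± 1.22 FPKM (SD, n = 3), 19.2-fold lower in shCdGAP, with a log2 fold change of -2.43 (SE 0.20, limma adjusted p = 7.64e-04).

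The other srGAPs did not pass the test. Srgap2 was the most abundant of them, at 12.5, 9.92 and 8.14 FPKM in shCdGAP and 9.43, 8.46 and 8.18 in shCtl, with overlapping groups (log2 fold change 0.19, limma adjusted p = 0.459). Arhgap4, which shares the F-BAR and RhoGAP layout, was at 0.399, 0.466 and 0.363 FPKM in shCdGAP and 0.575, 0.606 and 0.669 in shCtl. Its groups did not overlap, and it was close to the threshold (log2 fold change -0.20, limma adjusted p = 0.0702). Arhgap4 shares 116 bases of exon with Naa10 on the same strand, so a part of its reads cannot be told apart from those of Naa10. Srgap1 had 2 reads over the shCdGAP libraries and 5 over shCtl. The srGAP group as a whole summed to 10.9 ± 2.47 FPKM in shCdGAP and 15.3 ± 1.84 in shCtl.

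Among the Rac GAPs of the FilGAP group, Arhgap24 and Arhgap22 stood at very different levels. Arhgap24 (ENSMUSG00000057315, chromosome 5, 102481391 to 102897937, plus strand) encodes FilGAP, a Rac GAP that binds filamin A. It was at 0.731, 0.741 and 0.659 FPKM in shCdGAP and 0.0707, 0.0579 and 0.0595 in shCtl, from 143 to 147 against 12 to 14 reads. The libraries of each group were close together and the groups lay an order of magnitude apart. Arhgap24 rose 11.3-fold by mean FPKM, and its log2 fold change was 0.69 (SE 0.051, limma adjusted p = 5.01e-04) or 3.47 from reads (limma-voom adjusted p = 3.01e-04). Even so, it remained far below Arhgap22, which was at 18.2, 20.1 and 18.7 FPKM in shCdGAP and 17.1, 15.6 and 16.1 in shCtl. The groups of Arhgap22 did not overlap, but the difference was small (log2 fold change 0.21, limma adjusted p = 0.160). It was called higher without both libraries numbered 1 (limma adjusted p = 0.0169).

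The DLC proteins are RhoA GAPs with a lipid-binding START domain. Stard13 (DLC2) was the main one in these cells, at 2.82, 2.15 and 2.30 FPKM in shCdGAP and 2.34, 2.46 and 2.43 in shCtl, with overlapping groups (log2 fold change 0.00, SE 0.11, limma adjusted p = 0.997). Dlc1 (ENSMUSG00000031523, chromosome 8, 36567751 to 36953143, minus strand) was close to silent in shCtl, with 2, 1 and 0 reads, and had 50, 54 and 24 reads in shCdGAP, or 0.149, 0.167 and 0.0658 FPKM. The depth-scaled ratio of its summed reads was 45.1, with a 95% interval from counting error of 15.1 to 221 (exact Clopper-Pearson). That interval leaves out variation between libraries. Only shCdGAP libraries reached the read minimum of the test, so the filter set the direction of Dlc1 in advance. The ratio and the calls below therefore do not test that direction. Dlc1 was not called on the log2(FPKM + 1) scale (log2 fold change 0.17, limma adjusted p = 0.0595). It was called without shCdGAP replicate 3 (0.0374), with a pseudocount of 0.1 FPKM (adjusted p = 0.0161) and from reads (log2 fold change 5.09, SE 0.77, limma-voom adjusted p = 0.00604). Even in shCdGAP it reached a small part of the level of Stard13.

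Stard8 (DLC3, ENSMUSG00000031216, chromosome X, 99003248 to 99074728, plus strand) had 10, 22 and 34 reads in shCdGAP and 2, 1 and 2 in shCtl, or 0.170 ± 0.0853 and 0.0130 ± 0.00613 FPKM (SD, n = 3). Every shCdGAP library was above every shCtl library. It missed the threshold on the log2(FPKM + 1) scale (log2 fold change 0.21, limma adjusted p = 0.0653), passed it there without shCdGAP replicate 1 (0.00827), and passed it from reads (3.33, limma-voom adjusted p = 0.0133). Arhgap29 (PARG1, ENSMUSG00000039831, chromosome 3, 121952541 to 122016753, plus strand), a RhoA GAP that acts downstream of Rap1, had 21, 18 and 27 reads against 4, 5 and 4, with groups that did not overlap. Its mean was 0.113 ± 0.0161 FPKM in shCdGAP and 0.0215 ± 0.00345 in shCtl, with an adjusted p of 0.0692 (log2 fold change 0.12, limma) and, from reads, 0.00384 (2.28, limma-voom). Dlc1, Stard8 and Arhgap29 reached the minimum of 10 reads in shCdGAP libraries alone, so they were tested only through the group where they are high.

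The chimaerins, Rac GAPs that diacylglycerol recruits to membranes, were both lower by mean in shCdGAP. Chn2 (beta-chimaerin, ENSMUSG00000004633, chromosome 6, 54039554 to 54301810, plus strand) was at 3.68, 5.07 and 5.39 FPKM in shCdGAP and 9.54, 8.25 and 8.06 in shCtl. Its groups did not overlap, and it fell by 0.76 on the log2 scale (SE 0.15, limma adjusted p = 0.0179). Chn2 was not called without shCdGAP replicate 2 (limma adjusted p = 0.0539) or shCtl replicate 1, 2 or 3 (0.0684, 0.0717 and 0.0637). Chn1 (alpha-chimaerin) was at 4.83, 6.97 and 8.05 FPKM in shCdGAP and 7.09, 11.1 and 10.3 in shCtl. In both groups replicate 1 was the lowest library of Chn1, and the groups overlapped through it. Chn1 was not called (log2 fold change -0.46, limma adjusted p = 0.206) and was called lower without both libraries numbered 1 (adjusted p = 0.00691).

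Of the RhoGAPs with WW and pleckstrin homology domains, Arhgap9 and Arhgap27 fell. Arhgap9 (ENSMUSG00000040345, chromosome 10, 127321964 to 127329943, plus strand), known mainly from blood cells, was at 0.459, 0.126 and 0.111 FPKM in shCdGAP and 2.26, 1.95 and 1.96 in shCtl. It had 19, 5 and 5 reads against 79, 97 and 95, and the highest shCdGAP library was replicate 1. Its mean fell 8.86-fold, and the log2 fold change was -1.32 (SE 0.13, limma adjusted p = 0.00148). All 3 shCtl libraries and 1 of shCdGAP reached the minimum of 10 reads. Of the leukocyte markers, Cd68 was lower in shCdGAP (5.08 ± 3.10 against 14.0 ± 2.93 FPKM, SD, n = 3). Itgam was higher (0.221 ± 0.0398 against 0.0334 ± 0.0193), a direction set by the filter. Csf1r was at 0.786 ± 0.392 against 0.383 ± 0.149 (not past the threshold). The summed list, most of it Cd68, was lower in each shCdGAP library. The part of other cells in the values of Arhgap9 was not tested. The exons of Arhgap9 overlap those of Gli1 by 62 bases on the opposite strand, and Gli1 was at 0.0502 FPKM in shCdGAP and 0.266 in shCtl.

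Arhgap27 (ENSMUSG00000034255, chromosome 11, 103331497 to 103363692, minus strand), which binds an endocytic adaptor, was at 7.29, 6.60 and 6.16 FPKM in shCdGAP and 10.0, 11.6 and 11.3 in shCtl. The groups were clearly apart, and Arhgap27 fell by 0.64 on the log2 scale (SE 0.11, limma adjusted p = 0.00987). It was not called without shCtl replicate 2 or 3 (limma adjusted p = 0.0620 and 0.0582). Arhgap12 was at 9.05, 5.10 and 4.95 FPKM in shCdGAP and 6.76, 5.02 and 4.75 in shCtl, high in both libraries numbered 1 and not called (log2 fold change 0.15, limma adjusted p = 0.708).

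The RICH and PDZ-domain RhoGAPs were lower by mean in shCdGAP by small amounts, apart from Arhgap44. Arhgap17 (RICH1), a Cdc42 GAP of tight junctions, was at 12.3, 10.9 and 9.62 FPKM in shCdGAP and 13.9, 13.5 and 14.3 in shCtl. Its groups did not overlap. It was not called (log2 fold change -0.33, limma adjusted p = 0.0945) and was called lower without shCdGAP replicate 1 (adjusted p = 0.0104). Arhgap17 shares 132 bases of exon with Lcmt1 on the opposite strand, a gene at 25.6 FPKM in shCdGAP and 18.4 in shCtl. Whether the reads of both were told apart there is unknown, since any use of strand is not stated. Arhgap44 (RICH2) was at 3.57, 2.07 and 1.88 FPKM against 2.88, 2.33 and 2.20, with overlapping groups (log2 fold change -0.01, limma adjusted p = 0.978). Arhgap21, a Cdc42 GAP of the Golgi, was at 11.4, 11.5 and 12.3 FPKM in shCdGAP and 13.2, 13.1 and 13.4 in shCtl (log2 fold change -0.16, limma adjusted p = 0.248). Its near relative Arhgap23 was at 8.07, 13.5 and 12.4 FPKM against 13.6, 13.9 and 13.7, with shCdGAP replicate 1 the low library (log2 fold change -0.28, limma adjusted p = 0.341). In neither PDZ-domain gene did the groups overlap.

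Arhgap1, the broadly expressed p50RhoGAP that acts on Cdc42, was among the steadiest members. It was at 25.0, 28.9 and 27.4 FPKM in shCdGAP and 24.0, 28.4 and 29.0 in shCtl, with equal means of 27.1 (SD 1.97 and 2.71, n = 3) and an adjusted p of 0.998 (limma). Its relative Arhgap8 had 6 reads over the shCdGAP libraries and 22 over shCtl. Arhgap39, a Rac and Cdc42 GAP with WW domains, was at 5.07, 3.92 and 3.45 FPKM in shCdGAP and 3.91, 3.55 and 3.50 in shCtl (log2 fold change 0.13, limma adjusted p = 0.551). Arhgap18, a RhoA GAP, was at 12.0, 6.90 and 5.78 FPKM in shCdGAP and 10.9, 8.14 and 8.23 in shCtl, highest in the libraries numbered 1. It was not called (log2 fold change -0.18, limma adjusted p = 0.679) and was called lower without shCdGAP replicate 1 (adjusted p = 0.0466). Its relative Arhgap40 went the other way among libraries, at 5.08, 11.0 and 9.80 FPKM in shCdGAP and 5.89, 11.5 and 12.5 in shCtl, lowest in those numbered 1 (log2 fold change -0.19, limma adjusted p = 0.753). Arhgap6 had 28 reads over shCdGAP and 62 over shCtl (limma adjusted p = 0.452), and shares 1335 bases of exon with Hccs on the opposite strand.

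Arhgap11a and Arhgap19, RhoA GAPs of dividing cells, did not pass the test with all 6 libraries and varied widely within shCdGAP. Arhgap11a was at 8.11, 43.8 and 45.2 FPKM in shCdGAP and 26.6, 37.8 and 38.7 in shCtl, and Arhgap19 at 2.57, 22.2 and 18.3 against 12.1, 14.9 and 14.4. In both genes shCdGAP replicate 1 was the lowest of the 6 libraries and shCtl replicate 1 the next. The log2 fold changes were -0.39 (SE 0.64, adjusted p = 0.709) for Arhgap11a and -0.33 (SE 0.70, limma adjusted p = 0.776) for Arhgap19. Without shCdGAP replicate 1 both turned positive, at 0.38 (limma adjusted p = 0.111) and 0.52 (0.0170), and Arhgap19 was then called. Without both libraries numbered 1 both were called higher, Arhgap11a at 0.21 (limma adjusted p = 0.0316) and Arhgap19 at 0.44 (0.0119). The summed level of 16 mitosis genes followed the same order of low libraries, at 68.0, 1027 and 988 FPKM in shCdGAP and 501, 742 and 740 in shCtl. Limma called 0 of the 16 (21.0% of all genes), with 0 at an unadjusted p under 0.05 (34.6%). Limma-voom called 0 as well (21.8%), and 9 were higher without shCdGAP replicate 1, where 19.9% of all genes were. Arhgap11a and Arhgap19 were the 2 of 34 members (5.88%) in which shCdGAP replicate 1 lay at least 1 log2 unit from the mean of replicates 2 and 3, against 9.38% of all tested genes. The part of cell division in these values was not tested.

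**Figure D4:**
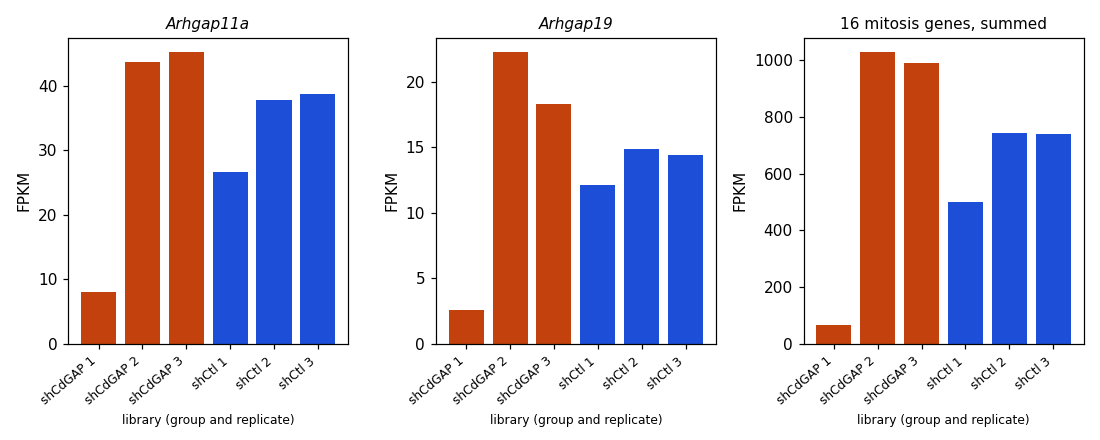
FPKM per library (bars from 0) of Arhgap11a, Arhgap19 and the sum of 16 mitosis genes, with shCdGAP in orange and shCtl in blue. In all 3 panels shCdGAP replicate 1 is the lowest library, at 8.11, 2.57 and 68.0 FPKM, and shCtl replicate 1 is the next.

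The RhoGDIs held the largest rise among the called members, beside an abundant member that did not pass the test. Arhgdib (ENSMUSG00000030220, chromosome 6, 136923655 to 136941899, minus strand) encodes RhoGDI2, the form best known from blood cells. It was at 7.06, 4.88 and 8.14 FPKM in shCdGAP and 0.676, 0.435 and 0.467 in shCtl, from 197 to 372 against 22 to 24 reads. All shCdGAP libraries were far above all shCtl libraries, and Arhgdib rose 12.7-fold, with a log2 fold change of 2.31 (SE 0.18, limma adjusted p = 6.91e-04). Arhgdia, which encodes RhoGDI1, was at 277, 374 and 395 FPKM in shCdGAP and 329, 334 and 351 in shCtl. It did not pass the test (log2 fold change 0.03, SE 0.15, limma adjusted p = 0.916) and made up between 97.5% and 99.8% of the summed RhoGDI level in each library, so the sum was 355 ± 62.8 and 338 ± 11.6 FPKM (SD, n = 3). Beside Arhgdib, the summed leukocyte markers were at 10.3, 5.82 and 3.59 FPKM in shCdGAP and 18.5, 13.8 and 13.7 in shCtl. Most of that sum was Cd68, at 8.45, 4.42 and 2.37 FPKM in shCdGAP and 17.3, 12.2 and 12.3 in shCtl. Itgam was higher in shCdGAP, a direction set by the filter. The part of other cells in the values of Arhgdib was not tested. Arhgdig (RhoGDI3) had 0 reads in all 3 shCdGAP libraries and 4, 13 and 14 in shCtl. Taking 3 reads over the group as the floor, it was at least 9.78-fold lower in shCdGAP, and the authors' deposited table called it lower (log2 fold change -2.81, adjusted p = 3.52e-04, DESeq2). Arhgdig did not reach the read minimum of the test, and with no such minimum it was called lower (limma adjusted p = 0.0417).

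The 11 called members lie on 8 chromosomes, and chromosome 6 holds 3 of them (Arhgdib, Srgap3 and Chn2). The median log2 fold change of genes above 3 FPKM there, relative to all such genes, ran from -0.21 on chromosome 10, which holds Arhgap9, to 0.21 on chromosome 8, which holds Arhgap10. It was -0.11 on chromosome 11, which holds Arhgap27, and 0.01 on chromosome 6. Any part of these chromosome medians in the calls was not tested.

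The study joins CdGAP to the repressor Zeb2, whose family binds the E-box CACCTG, so the stretch of 250 bases upstream of each start site in the RefSeq table (GRCm38.p6) was read for CACCTG on either strand. Of all 32851 windows, 17.2% hold it. Windows were found for 32 of the 43 members, 50 in all, and 11 of them hold the motif. Members can have more than 1 window, so counts of members cannot be set against the 17.2% of windows. Of the 11 called members, 8 have a window, and 2 of those hold it, 1 that rose (Arhgdib) and 1 that fell (Arhgap32). Both are shown as the called members with a match, without the bases that the annotation places in exons, with the motif in capitals. It begins 117 and 88 bases before the start site, which is internal to the longest gene model in each case. The Arhgdib window is chr6:136941504-136941650 on the minus strand, where the motif reads as its reverse complement CAGGTG, and that of Arhgap32 is chr9:32224025-32224248 on the plus strand.
Arhgdib: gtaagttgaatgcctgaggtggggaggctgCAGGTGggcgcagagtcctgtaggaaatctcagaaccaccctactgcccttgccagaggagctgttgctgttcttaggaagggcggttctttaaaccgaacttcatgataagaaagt
Arhgap32: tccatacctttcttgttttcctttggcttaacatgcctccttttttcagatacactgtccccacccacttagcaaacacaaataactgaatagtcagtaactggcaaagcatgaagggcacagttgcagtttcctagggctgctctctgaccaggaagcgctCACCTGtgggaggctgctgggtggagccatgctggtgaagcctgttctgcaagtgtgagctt
The other Arhgdib and Arhgap32 windows and those of Arhgap27, Arhgap35, Arhgap42, Arhgap5, Chn2 and Srgap3 hold no match. Arhgap10, Arhgap24 and Arhgap9 have no window in the table.

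Of 21 genes of the GTPases that the family acts on, 18 were tested, and 3 were higher (9.92% of all genes were), 0 lower (11.1%) and 15 did not pass the limma test, with 5 higher and 0 lower at an unadjusted p under 0.05. Limma-voom also called 3 higher and 0 lower, the replicate block 2 higher, and without shCdGAP replicate 1 there were 5 higher and 2 lower, against 39.9% of all genes called in either direction. Rhou, an atypical Cdc42-like GTPase, was at 52.0, 60.2 and 62.5 FPKM in shCdGAP and 23.6, 25.3 and 25.5 in shCtl (log2 fold change 1.19, limma adjusted p = 9.99e-04). The others were Rhobtb3 (log2 fold change 0.82, limma adjusted p = 0.0394) and Rnd3, a RhoA antagonist that recruits p190 RhoGAP (0.41, adjusted p = 0.0384). The summed FPKM of the 21 genes was 845 to 857 in shCdGAP and 705 to 742 in shCtl.

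A list of 26 genes held RhoGAP-domain proteins with other names and also Arhgef1, an activator of RhoA with no RhoGAP domain. Of these 25 were tested, and 2 were higher (9.92% of all genes were), 5 lower (11.1%) and 18, Arhgef1 among them, did not pass (limma). Arap3 and Arap1, GAPs for both Arf proteins and RhoA relatives, fell by 4.55 and 0.84 on the log2 scale. Sh3bp1, a Rac GAP with a BAR domain, and Bcr were also lower (-1.16 and -0.68, limma), and Pik3r1 was higher (0.62). Without shCdGAP replicate 1, 5 of these genes were higher and 9 lower, again against 39.9% of all genes called.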

How the data were processed

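RNA of 6 libraries, 3 shCdGAP and 3 shCtl, was read from 1 table in which the authors deposited FPKM per gene and library beside their own DESeq2 comparison. Per the submitters' processing notes, Trimmomatic, TopHat2 2.0.13, featureCounts, DESeq2 and the build mm10 were used. The annotation release and any use of strand are unknown here, so overlapping and antisense genes may share reads. Per the file headers, the comparison columns hold a mean signal per gene (reads divided by size factors), the log2 fold change, its standard error and test statistic (both taken as a score), a p-value and an adjusted p-value, all by the authors.

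FPKM times a factor per gene (the authors' mean signal over the mean FPKM) and a size factor per library came out as whole reads for 100% of values (tolerance 1e-06). Per-library columns that match no sample number 0. Of the gene identifiers, 40254 were found in the GENCODE annotation used for names and positions. A gene was tested with 10 reads or more, scaled to the median depth, in 3 libraries or more and 15 reads or more in all, which kept 13483 genes. The test was limma 3.58.1 (trend, robust, R 4.3.3) on log2(FPKM + 1), 2-sided, with Benjamini-Hochberg adjustment over all of these and a threshold of 0.05. It was also run on simulated data with independent libraries and the same extra spread between libraries for all genes. Those data held no outlying library and no deviation shared between groups, so they do not show error rates here. The alternatives were other scalings (library totals, trimmed mean, quantile), a pseudocount of 0.1, no filter or 5 CPM, limma-voom on the recovered reads, the replicate number as a block, each library left out and both libraries numbered 1 left out. Limma-voom without shCdGAP replicate 1 was added after seeing the data. Figures were drawn with matplotlib 3.10.9 in Python 3.11.15.

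Libraries with the same number deviated together from their group means (correlations of 0.41, 0.35 and 0.30 for numbers 1, 2 and 3). So did shCdGAP replicate 2 with shCtl replicate 3 (0.31) and shCdGAP replicate 3 with shCtl replicate 2 (0.24). Deviations within a group cancel out, so libraries numbered 1 that deviate alike can give all of these signs. The labels give only the number, and these values do not show that numbers 2 and 3 are pairs. Members were chosen by symbol. Values in every library are given for members past the threshold, for those that another fit called (10 at most, by p), for the 3 most abundant of each subfamily and for a list of regulators fixed by name. The members and lists were chosen with earlier results of these data known. Intervals on read counts cover counting error only. Some genes of the lists are counted but not reported here by name.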

Additional observations from a re-analysis of the deposited data

How the results depend on the processing

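Of the members' log2 fold changes under the alternatives, 446 kept their direction and side of the threshold, 32 moved past the threshold with the same sign, 26 lost it, and 32 turned sign, all of members that did not pass the test with all libraries. Of those that turned, Arhgap19 in 3 fits and Arhgap11a in 1 were then called. The cause of these changes was not tested. With all 6 libraries 1337 genes were higher and 1501 lower. Library totals gave 1112 and 1705, a 5 CPM minimum 922 lower (fewer genes tested), leaving out both libraries numbered 1 gave 3276 and 3230, limma-voom without shCdGAP replicate 1 gave 2779 and 2876, and leaving out each library in turn 469 to 2680 and 768 to 2693. Members called higher (4 of 34, against 9.92% of all genes) became 8 with quantile scaling (10.9%), 7 with a pseudocount of 0.1 (10.4%) and 7 with limma-voom (10.1%). They became 9 without both libraries numbered 1 (24.3%), 10 with limma-voom without shCdGAP replicate 1 (20.6%), and 2 to 7 leaving out each library (3.48% to 19.9%). Members called lower (7) became 4 with the replicate block, 11 without both libraries numbered 1, 10 with limma-voom without shCdGAP replicate 1, and 3 to 9 leaving out each library. Small GTPases of the RhoA family called in either direction (3, against 21.0% of all genes) became 1 with no filter (11.2%). They became 8 without both numbered 1 (48.3%), 7 with limma-voom without shCdGAP replicate 1 (41.9%) and 1 to 7 leaving out each library (9.17% to 39.9%). In the list of other RhoGAP-domain proteins with Arhgef1, those called (7) became 16, 15 and 4 to 14 under the last 3 of these. The same shares of all genes stand beside these counts. The log2 fold change of Arhgap31 was -0.38 without both numbered 1, -0.71 with limma-voom without shCdGAP replicate 1 and -0.68 to -0.35 leaving out each library. The replicate block ended the calls of Arhgap10, Arhgap35 and Chn2 and changed no other call of a member. It left 2 of these GTPases called, against 18.2% of all genes.

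Under limma-voom without shCdGAP replicate 1 the log2 fold changes were 0.054 (Arhgap1), 0.39 (Arhgap11a), -0.10 (Arhgap12), 0.55 (Arhgap19), 0.089 (Arhgap40) and -0.12 (Stard13), and without both numbered 1 they were 0.21 (Arhgap11a), 0.44 (Arhgap19) and -0.094 (Stard13). Quantile scaling gave 0.040 (Arhgap44), 0.031 (Arhgap6) and -0.14 (Arhgdia), and library totals -0.029 (Arhgdia) and -0.041 (Stard13). Stard13 was also at -0.0075 with trimmed mean scaling, -0.0012 with a pseudocount of 0.1 and -0.0035 with limma-voom. Over the fits that left out 1 library each, the log2 fold change ran from -0.083 to 0.055 for Arhgap1, -0.79 to 0.38 for Arhgap11a, -0.098 to 0.28 for Arhgap12, -0.45 to 0.016 for Arhgap18, -0.83 to 0.52 for Arhgap19, -0.49 to 0.11 for Arhgap40, -0.22 to 0.12 for Arhgap44, -0.068 to 0.19 for Arhgdia and -0.080 to 0.058 for Stard13. Dlc1, Stard8 and Arhgap29 rest on few reads, and their calls changed with the pseudocount.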
